A study of Mus musculus with 6 samples.

Results

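The histone cluster genes of the mouse were read in Ocy454 cells, an osteocytic cell line that responds to parathyroid hormone (PTH). They were taken by name, as all genes whose symbol starts with Hist1h, Hist2h, Hist3h or Hist4h, which gave 70 of the 39179 genes listed. The line is a single cell subclone, so all 6 libraries come from 1 clone. Cells were grown to confluency at 33 °C, kept at 37 °C for 14 days and then treated for 4 h. Vehicle (PBS with HCl), 1 nM PTH 1-34 and 0.5 µM YKL-05-093, a compound that blocks salt-inducible kinases (SIKs), gave 2 libraries each. The vehicle is as the labels give it, whereas the study's methods name that solvent for its mouse work and DMSO for compound stocks in cell work. The groups differ by treatment alone, as far as the labels say. Nothing in the labels says that the duplicates came from separate cultures, so the p-values measure the spread between these libraries only. The comparisons ask whether either treatment changed the histone genes within 4 h, and whether the treatments differed.

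Each nucleosome is built from the core histones H2A, H2B, H3 and H4, and the linker histone H1 binds the DNA between nucleosomes. The cluster genes supply these proteins in S phase, when new DNA has to be packed. Their short mRNAs mostly have no intron and end in a stem-loop instead of a poly(A) tail. The stem-loop binding protein SLBP and the U7 small nuclear ribonucleoprotein form that end, and NPAT activates the genes at the histone locus body. The libraries here were made by ribosomal RNA depletion, which does not select for a poly(A) tail.

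The genes lie close together. On GRCm38, 24 of them fill chr13:21715763-22043676 and 31 fill chr13:23531050-23934851, with 1 more, Hist1h2al, further along chromosome 13. The Hist2 genes (10) lie on chromosome 3, the Hist3 genes (3) on chromosome 11, and Hist4h4 is alone on chromosome 6. RefSeq promoter sequence (GRCm38.p6) was matched for 61 of the 70 genes. In the 250 bases before the start, 5 short motifs from textbook descriptions of histone promoters were searched on both strands, and none of the 5 contains another. The CCAAT box was present in 6 of 6 H1, 17 of 17 H2A, 16 of 16 H2B and 8 of 10 H3 genes, but in 3 of 12 H4 genes, against 33.8% of all 32851 promoters. The octamer ATTTGCAT was found in 7 of 17 H2A and 7 of 16 H2B genes and in no gene of the other classes, against 1.60% of all promoters. AAACACA, the H1 box, was in 5 of 6 H1, 2 of 17 H2A and 2 of 16 H2B genes and in no H3 or H4 gene (6.25% of all promoters). GGTCC, part of the H4 site, was in 11 of 12 H4 genes, and 39.8% of all promoters hold these 5 bases. TATAAA was in 29 of the 61 genes against 12.4% of all promoters. Many H2A and H2B genes share 1 stretch between their starts, so these counts are not independent.

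The 180 bases before the start are shown for the highest gene of each class whose stretch lies outside the gene's annotated transcript or overlaps it by at most 2 bases, for Hist1h1e, which holds the H1 box, and for the testis gene Hist1h2ba. Capitals mark the 5 motifs on either strand (the reverse of the CCAAT box, for example, is ATTGG). In the 250 bases, TATAAA was found in 19 of 37 genes with a mean of at least 100 RPKM, a read count divided by gene length and library size, and in 2 of 12 with a mean under 1, and the CCAAT box in 31 of 37 and 11 of 12. Hist1h2ba, read at under 1 RPKM on average, holds the octamer, the CCAAT box and TATAAA, all of which also stand before Hist1h2bb, the highest H2B gene. Their positions differ, as TATAAA begins 94 bases before the start in Hist1h2ba and 10 bases before it in Hist1h2bb. Hist1h2ba also holds AAACACA on the reverse strand (TGTGTTT), which Hist1h2bb does not.
Hist1h1a, chr13:23763488-23763667, plus strand: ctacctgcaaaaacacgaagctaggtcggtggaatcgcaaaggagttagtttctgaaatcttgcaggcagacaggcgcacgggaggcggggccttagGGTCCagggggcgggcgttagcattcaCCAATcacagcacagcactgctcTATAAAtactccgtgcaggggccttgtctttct
Hist1h1e, chr13:23622559-23622738, minus strand: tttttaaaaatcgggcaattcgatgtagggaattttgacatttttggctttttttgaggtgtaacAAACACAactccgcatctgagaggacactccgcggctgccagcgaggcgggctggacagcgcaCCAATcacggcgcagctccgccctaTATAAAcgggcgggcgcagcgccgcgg
Hist2h2ac, chr3:96220881-96221060, minus strand: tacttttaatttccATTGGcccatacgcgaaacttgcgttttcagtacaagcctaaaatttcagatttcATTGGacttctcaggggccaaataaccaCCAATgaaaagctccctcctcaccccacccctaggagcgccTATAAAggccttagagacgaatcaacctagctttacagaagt
Hist1h2bb, chr13:23746554-23746733, plus strand: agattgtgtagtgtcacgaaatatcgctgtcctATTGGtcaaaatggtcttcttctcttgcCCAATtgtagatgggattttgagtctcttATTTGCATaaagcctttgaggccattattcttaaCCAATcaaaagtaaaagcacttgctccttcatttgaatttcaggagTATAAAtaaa
Hist1h2ba, chr13:23934157-23934336, minus strand: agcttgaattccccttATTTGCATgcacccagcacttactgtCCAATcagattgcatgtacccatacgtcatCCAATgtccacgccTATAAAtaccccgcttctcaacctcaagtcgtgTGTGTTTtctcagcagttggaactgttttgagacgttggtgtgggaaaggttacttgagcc
Hist1h3e, chr13:23562386-23562565, minus strand: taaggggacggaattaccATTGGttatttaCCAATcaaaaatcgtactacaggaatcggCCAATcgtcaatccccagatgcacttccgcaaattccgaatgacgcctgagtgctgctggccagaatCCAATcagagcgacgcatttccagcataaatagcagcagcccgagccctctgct
Hist1h4d, chr13:23581388-23581567, plus strand: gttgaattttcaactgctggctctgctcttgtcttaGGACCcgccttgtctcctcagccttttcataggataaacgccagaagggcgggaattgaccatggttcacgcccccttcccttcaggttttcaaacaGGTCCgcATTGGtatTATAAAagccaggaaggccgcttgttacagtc

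Levels are in RPKM as the authors deposited them. Library totals ran from 17505798 to 27983585 reads. The vehicle libraries stood apart from each other. Over all tested genes the median absolute difference between duplicates was 0.333 on the log2 scale in the vehicle pair, 0.108 in the PTH pair and 0.103 in the pair with the kinase inhibitor. Of the markers of the labelled cell type, Col1a1, the main bone collagen, was between 259 and 430 RPKM and Alpl between 61.7 and 88.9. The osteocyte genes Sost, Fgf23 and Mepe were under 0.15 RPKM in all 6 libraries, and Dmp1 lay between 0.38 and 1.15. Of the same list, Phex lay between 0.764 and 4.93 RPKM and Pdpn between 53.1 and 171. Of the endothelium and muscle lists, Cdh5 and Myod1 were listed at 0 in all libraries, and Pecam1 and Myog had means under 0.1. Kdr lay between 0.476 and 1.72 RPKM and Acta1 between 0.28 and 0.42. The summed RPKM of the macrophage and osteoclast list ran from 78.1 to 99.2, almost all from Ctsk, at 74.1 to 94.7. In that list Cd68 lay between 3.69 and 4.42, while Csf1r, Ptprc, Acp5 and Emr1 had means under 0.1. The sums ran from 1.10 to 2.32 for fat, from 0.513 to 1.79 for endothelium and from 0.28 to 0.42 for muscle.

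Histone cluster mRNA was abundant in these cells. The 70 genes took 1.27% (Wilson 95% interval 1.27 to 1.28) and 1.93% (1.92 to 1.93) of the reads in the vehicle libraries, 1.90% (1.89 to 1.90) and 1.81% (1.80 to 1.81) in the PTH libraries, and 1.87% (1.86 to 1.87) and 1.64% (1.64 to 1.65) in those given YKL-05-093. These intervals cover counting error only. In bulk RNA, fewer cells in S phase and less histone mRNA per cell cannot be told apart. Of the 70 genes, 9 had a mean of at least 1000 RPKM, 32 lay between 100 and 1000, 14 between 1 and 100, 11 were above 0 but under 1, and 4 were at 0 in all 6 libraries. By mean RPKM, 9 histone genes were among the 50 highest of all 39179 genes and 21 among the 100 highest.

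The highest was Hist1h4d, a gene for the core histone H4, with 2234 and 3255 RPKM in the vehicle libraries, 3060 and 3053 in the PTH libraries, and 3028 and 2484 with YKL-05-093. It ranked 13 among all genes. The library vehicle 1 was the lowest of the 6 and vehicle 2 the highest, so the treated libraries lay inside the vehicle range. Hist1h1a, the highest linker histone gene, was read at 1364 and 2152 RPKM with vehicle, 2415 and 2228 with PTH, and 2152 and 1836 with YKL-05-093. Here both PTH libraries were above both vehicle libraries. Hist1h2bb, the highest H2B gene, had 1286 and 1878, 1843 and 1750, and 1862 and 1678 RPKM in the same order. Vehicle 1 was again the lowest value and vehicle 2 the highest.

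**Figure D1:**
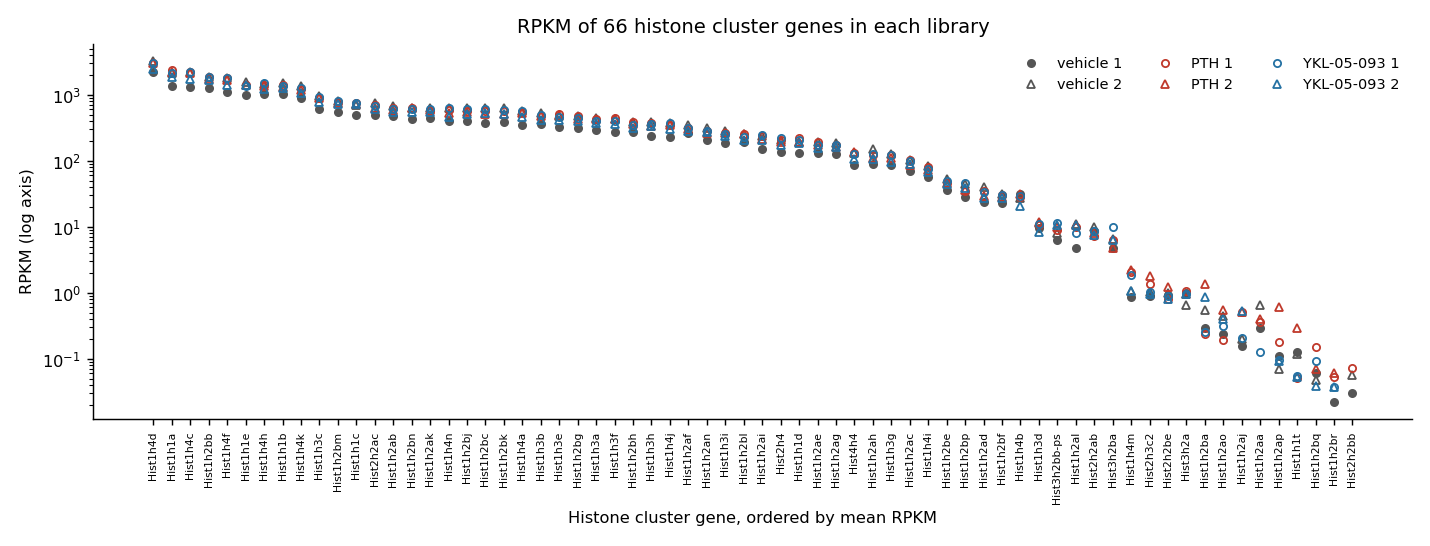
RPKM (log axis) of the 66 histone cluster genes above 0 in at least 1 library, ordered by mean RPKM. Each point is 1 of the 6 libraries, coloured by condition, and values of 0 are not drawn. The filled points of vehicle 1 are the lowest of the 6 for all 41 genes with a mean of at least 100 RPKM.

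The H4 genes held the largest share of the summed RPKM. Their 13 genes made up between 35.7% and 38.5% of the histone sum in the 6 libraries. The 6 H1 genes held 18.9% to 20.4%, the 19 H2B genes 19.8% to 20.9%, the 20 H2A genes 10.7% to 11.8% and the 12 H3 genes 11.2% to 11.6%. The order of H4 first and H3 and H2A last was the same in each library. The sum over all classes, in contrast, moved from 21106 RPKM in vehicle 1 to 32040 in vehicle 2, and was 31002 and 29696 in the PTH libraries, and 30756 and 26602 with YKL-05-093. The sum in vehicle 2 was 1.52 times that in vehicle 1, while each class kept nearly its share.

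**Figure D2:**
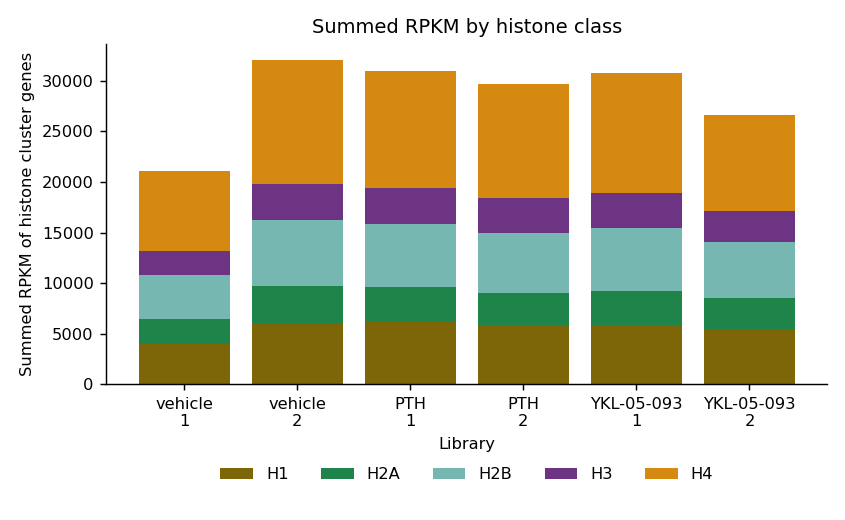
Summed RPKM of the histone cluster genes in each library (bars from 0), divided by histone class. Vehicle 1 is the lowest bar at 21106 and vehicle 2 the highest at 32040, and the division among the 5 classes changes little from bar to bar.

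Among the other H4 genes, Hist1h4c had a mean of 1970 RPKM, Hist1h4f 1603, Hist1h4h 1333 and Hist1h4k 1177. Of the linker genes, Hist1h1e reached 1357, Hist1h1b 1317, Hist1h1c 691 and Hist1h1d 188, while the testis-specific Hist1h1t had 0.115. The highest H3 gene was Hist1h3c, with 615 and 952 RPKM in the vehicle libraries, 904 and 886 in the PTH libraries, and 924 and 786 with YKL-05-093. The highest H2A gene was not in the large cluster: Hist2h2ac on chromosome 3 had 495 and 748, 709 and 635, and 685 and 611 RPKM in the same order. Hist4h4, outside the clusters, had 85.2 and 134, 130 and 136, and 127 and 108 RPKM. In all 3, vehicle 1 was the lowest library.

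The genes known from the testis were near the limit of detection. A gene of 500 bases with 3 reads would be listed at between 0.214 and 0.343 RPKM, depending on the library. Hist1h2ba, a testis H2B, had 0.294 and 0.553 RPKM with vehicle, 0.239 and 1.35 with PTH, and 0.254 and 0.870 with YKL-05-093, from 4.83 reads per library on average. Its divergent neighbour Hist1h2aa, a testis H2A, was at 0.294 and 0.643, 0.357 and 0.404, and 0.127 and 0. No treatment difference was detectable at this depth for either.

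The genes are near copies of each other, and this limits what a level means. On the annotated transcripts, 35 of the 70 genes had fewer than 50% of their 50-base windows to themselves, and 4 genes had none: Hist2h2aa1, Hist2h2aa2, Hist2h3b and Hist2h3c1. These 4 were the genes listed at 0 in all libraries, and whether they were silent cannot be told from these values. Of the 35 genes with fewer than 50% unique windows, 19 had a mean of at least 100 RPKM, against 22 of the other 35. The median of the mean levels was 118 RPKM in the first set and 329 in the second. The levels of single H2A, H2B, H3 and H4 genes are therefore uncertain where reads could have been placed on a copy. Hist1h1a and Hist1h1b had 100% unique windows and Hist1h4d 89.8%, against 28.5% for Hist1h4k and 13.6% for Hist1h2bn. These windows cover the annotated transcripts, which for Hist1h4d, Hist1h4c and Hist1h1e are longer than the gene length behind the RPKM values. The unique share within the counted bases was not measured, so the 89.8% does not show how certain the Hist1h4d level is. In the annotated transcripts, exons of 26 of the 70 genes overlap another annotated gene on either strand, as Hist1h1e does with Hist1h2be. Whether these overlaps reach the counted bases was not tested.

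Divergent neighbours were alike in level in some pairs and far apart in others. The pairs are named here after their values were seen. Of 15 pairs whose starts lie within 1000 bases of each other on opposite strands, 14 join an H2A and an H2B gene and 1 joins Hist1h2bh and Hist1h3f. In Hist1h2ak and Hist1h2bn the means were 570 and 580 RPKM, in Hist1h2bl and Hist1h2ai 235 and 217, and in Hist1h2bf and Hist1h2ad 28.5 and 31.7. In Hist1h2ag and Hist1h2bj they were 163 and 544 RPKM. The widest gaps were in Hist2h2ac and Hist2h2be, with 647 and 0.945 RPKM from starts 239 bases apart, and in Hist1h2aj and Hist1h2bm, with 0.352 and 736 RPKM from starts 236 bases apart. Hist2h2be, known from olfactory neurons, has 100% unique windows, whereas Hist1h2aj is annotated as a pseudogene with 6.9% unique windows.

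**Figure D3:**
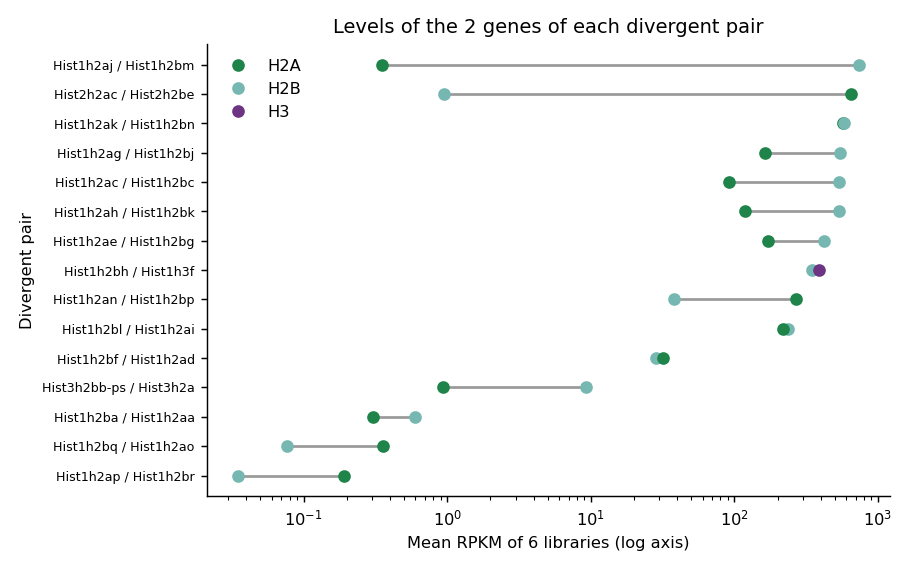
Mean RPKM over the 6 libraries (log axis) of the 2 genes in each of 15 divergent pairs, coloured by class and joined by a line. Points coincide in pairs such as Hist1h2ak and Hist1h2bn (570 and 580 RPKM) and lie far apart in Hist2h2ac and Hist2h2be (647 and 0.945 RPKM).

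Tested genes were those that reached 0.5 RPKM in 2 or more libraries, which 59 of the 70 histone genes (84.3%) and 36.4% of all listed genes did. Of the 11 that did not pass, 7 were above 0 in some library. Of the 59, 57 were lower in vehicle 1 than in vehicle 2, by a median of 0.56 on the log2 scale, whereas all tested genes were slightly higher in vehicle 1, with a median of vehicle 2 minus vehicle 1 of -0.06. In the 49 genes with at least 100 reads per library on average, the ratio of vehicle 2 to vehicle 1 ran from 0.897 to 1.71, with a median of 1.5 and quartiles of 1.45 and 1.58. Vehicle 1 was the lowest of the 6 libraries for 53 of the 59 (89.8%) and for 26.0% of all tested genes.

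Gene length and level moved with this difference. The tested histone genes had a median length of 529 bases, against 3069 for all tested genes. Among the other tested genes, the 1111 of 300 to 800 bases were higher in vehicle 2 by a median of 0.42 on the log2 scale, and the 561 with a mean of at least 100 RPKM by 0.37. The 119 genes that met both limits were higher by 0.56, the same to 2 decimals as the histone genes. The duplicates of the treated groups were closer: PTH 1 minus PTH 2 had a median of 0.05 over the 59 genes, and YKL-05-093 1 minus YKL-05-093 2 a median of 0.16, with 54 of 59 higher in the first library.

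**Figure D4:**
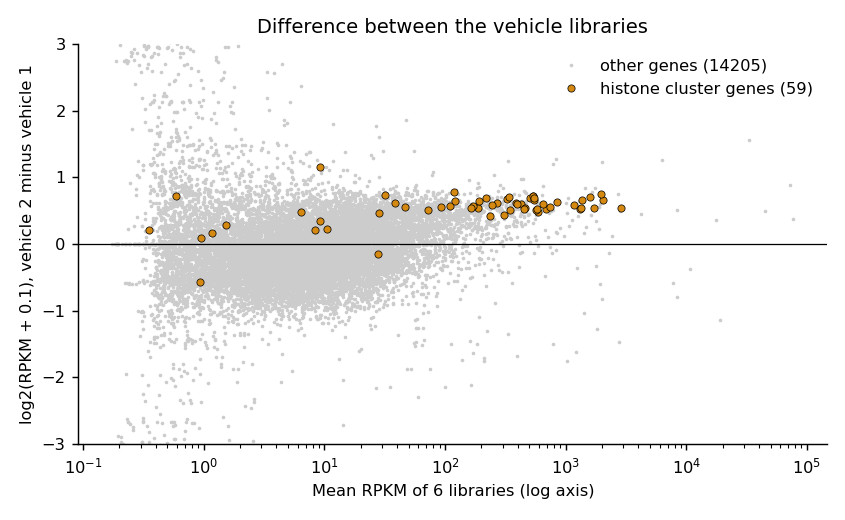
Difference in log2(RPKM + 0.1) between vehicle 2 and vehicle 1 (vertical axis, cut at 3 in both directions, which leaves out 133 other genes) against the mean RPKM of the 6 libraries (log axis). Of the 59 histone cluster genes, 57 lie above the line at 0, in the upper part of the cloud of 14205 other tested genes.

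After 4 h of PTH, no histone cluster gene passed the test. By limma on log2(RPKM + 0.1), with adjustment over all 14261 genes tested and a limit of 2-fold, 0 of 59 histone genes were called, where 1.91% of all genes were. Without adjustment, 1 of the 59 had p under 0.05 (13.3% of all genes), in the direction of higher levels (6.41% of all genes), and voom on the recovered reads also called 0 with 1 under 0.05. The median log2 fold change of the 59 was 0.20, against -0.03 over all genes, and 56 of 59 were above 0, as 45.7% of all genes were. With each library's trend over gene length removed, the median was 0.07, with 47 of 59 above 0. The PTH libraries lay above both vehicle libraries for 9 of the 59, with 19.1% over all genes, and below both for 1, with 24.0% over all genes.

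Among the genes with at least 100 reads, the log2 fold changes furthest from 0 were in Hist1h1a and Hist1h1d of the H1 class and in Hist1h3e and Hist1h3f of the H3 class, the last 2 named after their values were seen. Hist1h1a had a log2 fold change of 0.44 ± 0.27 (SE, 2 libraries per group, limma adjusted p = 0.581), Hist1h1d 0.39 ± 0.24 (adjusted p = 0.588), Hist1h3e 0.35 ± 0.22 (adjusted p = 0.596) and Hist1h3f 0.35 ± 0.24 (adjusted p = 0.628). Of the other tested H1 genes, Hist1h1c had 0.33 ± 0.24, Hist1h1e 0.20 ± 0.26 and Hist1h1b 0.14 ± 0.24, the last below the median of the 59. Hist1h1c had 489 and 702 RPKM with vehicle and 763 and 715 with PTH, so its PTH libraries were above both vehicle libraries. Hist1h1d had 130 and 190 RPKM with vehicle, and 219 and 193 with PTH. For Hist1h4d the log2 fold change was 0.18 ± 0.24, with a 95% interval from -0.38 to 0.74. In 48 of the 49 genes with at least 100 reads, the 95% interval lay within 2-fold in both directions, and the exception was Hist1h1a, whose upper bound was 1.06.

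Some genes with few reads had larger values. Hist1h4m, an H4 gene named after its values were seen, had 0.848 and 1.06 RPKM with vehicle and 2.06 and 2.21 with PTH, from 12.8 reads per library on average, and its log2 fold change of 1.09 ± 0.38 had an adjusted p of 0.273 by limma. It has 10.2% unique windows. Hist2h3c2, an H3 gene, had 0.899 and 1.02 RPKM with vehicle and 1.37 and 1.80 with PTH (log2 fold change 0.66 ± 0.30, limma adjusted p = 0.400). Hist1h2al, annotated as a processed pseudogene, had 4.85 and 10.9 RPKM with vehicle and 9.82 and 10.6 with PTH (log2 fold change 0.48 ± 0.36, limma adjusted p = 0.672). Hist1h2aj, the H2A pseudogene beside Hist1h2bm, had 0.158 and 0.197 RPKM with vehicle, 0.511 and 0.507 with PTH, and 0.204 and 0.533 with YKL-05-093, from 5.33 reads per library on average. It met the filter only through libraries given PTH or YKL-05-093, so its fold change is not given. It still counts as 1 of the 59 in the medians and among the genes above 0 for both treatments. It is also 1 of the 9 genes with PTH libraries above both vehicle libraries, and 1 of the 4 for YKL-05-093.

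YKL-05-093 gave the same count. Of the 59 histone genes 0 were called by limma, where 0.666% of the 14255 genes tested were, and 1 had an unadjusted p under 0.05 (8.67% of all genes), with 0 and 1 by voom. That gene was higher, as 3.9% of all genes were, and none was lower, as 4.77% were. The median log2 fold change was 0.15, against -0.04 over all genes, and 51 of 59 were above 0, as 43.2% of all genes were. Both treated libraries were above both vehicle libraries for 4 of the 59, with 15.7% over all genes, and below for 2, with 22.1%. In 49 of the 49 genes with at least 100 reads the 95% interval lay within 2-fold in both directions. The gene with the smallest p was Hist3h2bb-ps, an H2B pseudogene on chromosome 11. It had 6.40 and 8.16 RPKM with vehicle and 11.4 and 10.5 with YKL-05-093 (log2 fold change 0.59 ± 0.22, limma adjusted p = 0.466). For PTH its log2 fold change was 0.39 ± 0.21 (limma adjusted p = 0.529). PTH minus YKL-05-093 was -0.20 ± 0.16 (limma adjusted p = 0.545). Its neighbour Hist3h2ba had 4.69 and 6.56 RPKM with vehicle, and 10.002 and 6.29 with YKL-05-093 (log2 fold change 0.51 ± 0.29, adjusted p = 0.755). Of the abundant genes, Hist1h1c was furthest from 0, with 746 and 730 RPKM after YKL-05-093 and a log2 fold change of 0.33 ± 0.23 (limma adjusted p = 0.809).

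Both of these comparisons use the same vehicle libraries, and the sign of the medians depended on which of them was used. Without vehicle 1, the median over the 59 genes was -0.09 for PTH, with 13 of 59 above 0, and -0.16 for YKL-05-093, with 7 of 59 above 0. Without vehicle 2, it was 0.49 for PTH and 0.43 for YKL-05-093. In the fits without vehicle 2, 50 of 59 genes had an unadjusted p under 0.05 for PTH and 38 for YKL-05-093, with 45.8% and 40.3% over all genes. In the fits without vehicle 1 these were 4 and 1 of 59, with 27.7% and 23.9% over all genes. No histone gene was called without vehicle 1, where 2.8% of all genes were for PTH and 0.295% for YKL-05-093. Without vehicle 2 the calls were 1 of 59 for PTH, with 4.7% over all genes, and 0 for YKL-05-093, with 2.25%. The call was Hist1h2al, with a log2 fold change of 1.06 for PTH without vehicle 2 (limma adjusted p = 0.0239). With 1 vehicle library left, that library was assumed to vary as the treated libraries do.

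Single abundant genes turned in the same way. Hist1h4c, an H4 gene, had 1337 and 2243 RPKM with vehicle, 2187 and 2132 with PTH, and 2189 and 1732 with YKL-05-093. Its log2 fold change for PTH was 0.32 ± 0.27 with all libraries, -0.05 without vehicle 1 and 0.69 without vehicle 2. Hist1h1a kept a value above 0 for PTH in both cases, with 0.11 without vehicle 1 and 0.77 without vehicle 2. Hist1h1c did so for both treatments, with 0.07 without vehicle 1 for PTH and 0.07 for YKL-05-093.

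**Figure D5:**
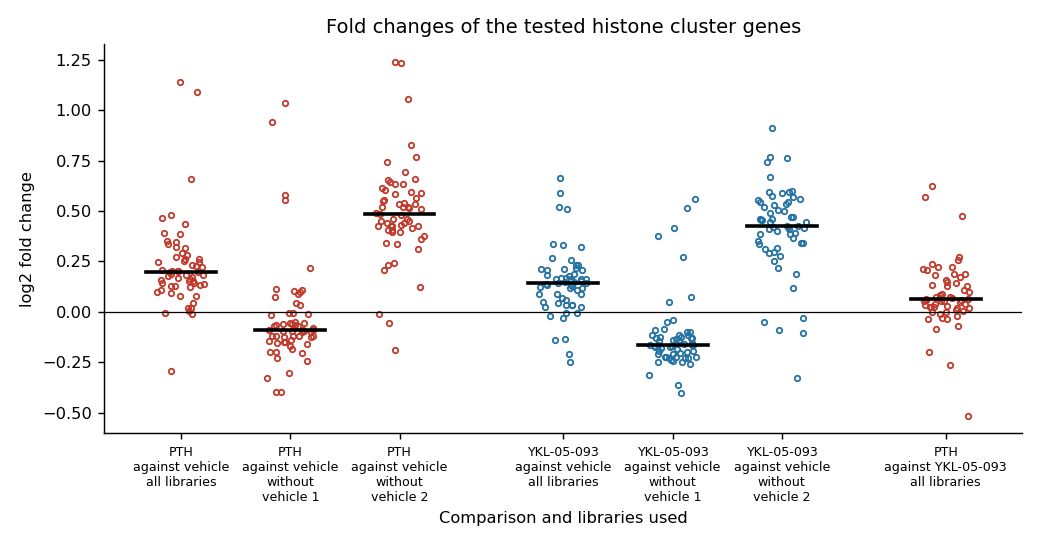
Log2 fold changes of the 59 tested histone cluster genes (points) and their median (bar) in each comparison, with all libraries and with either vehicle library left out. The medians are above 0 with all libraries (0.20 for PTH and 0.15 for YKL-05-093), below 0 without vehicle 1, and above 0.4 without vehicle 2.

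The direct comparison of PTH and YKL-05-093 does not use the vehicle libraries. Of the 59 genes 0 were called by limma, where 1.21% of the 14255 genes tested were, and voom called 0 too. The median log2 difference, PTH minus YKL-05-093, was 0.06, against 0.01 over all genes, and 49 of 59 were above 0, as 53.2% of all genes were. With the length trend removed it was -0.0042, with 27 of 59 above 0. An unadjusted p under 0.05 was found for 8 of 59 (22.3% of all genes) by limma and 9 by voom. Of the 8, 6 were higher after PTH (11.4% of all genes) and 2 lower (10.8%). The PTH libraries lay above both YKL-05-093 libraries for 14 of the 59, with 26.3% over all genes, and below both for 2, with 23.7%.

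Hist2h3c2 had the largest log2 difference, 0.63 ± 0.30, with 1.37 and 1.80 RPKM after PTH and 1.02 and 0.948 after YKL-05-093 (limma adjusted p = 0.232). Hist1h2bl, next, was picked after its values were seen, and the others by the size of the difference. Hist1h2bl, an H2B gene, had 259 and 256 RPKM after PTH and 232 and 210 after YKL-05-093, a log2 difference of 0.22 ± 0.07 with the smallest adjusted p of the 59 (limma, 0.0583). Its adjusted p was 0.0427 by voom and 0.0417 with the replicate number as a block, and with the length trend removed the difference was 0.10, with an adjusted p of 0.256. Its fold was under the 2-fold limit in each. Its divergent neighbour Hist1h2ai did not separate the treatments, with 236 and 217 RPKM after PTH and 250 and 207 after YKL-05-093. Hist1h2bp, also H2B, went the other way, with 35.1 and 35.9 RPKM after PTH and 46.9 and 38.7 after YKL-05-093 (log2 difference -0.26 ± 0.09, limma adjusted p = 0.0768). By voom its adjusted p was 0.0523, and by limma with the replicate block 0.0239. With the length trend removed the Hist1h2bp difference was -0.30, with a limma adjusted p of 0.0288, also under the 2-fold limit. Hist3h2ba had 6.33 and 4.81 RPKM after PTH against 10.002 and 6.29 (log2 difference -0.51 ± 0.22, adjusted p = 0.173), and these libraries overlap. Hist1h4b had 28.4 and 31.0 against 29.6 and 20.5 RPKM (log2 difference 0.27 ± 0.14, adjusted p = 0.297). Hist1h3d, an H3 gene, had 10.6 and 11.97 against 10.9 and 8.34 RPKM (log2 difference 0.24 ± 0.13, adjusted p = 0.322). In 49 of 49 genes with at least 100 reads the 95% interval lay within 2-fold, and its bounds ran from -0.45 to 0.58. For a single gene, an exact permutation test of 2 against 2 libraries cannot go below p = 0.333.

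The machinery around these genes was read from lists of other genes. Of 19 genes for histone mRNA transcription and 3′ end processing, 18 were tested and 0 were called in any of the 3 comparisons, with 0, 0 and 1 at an unadjusted p under 0.05 by limma (PTH against vehicle, YKL-05-093 against vehicle, and PTH against YKL-05-093). Over all genes, 1.91%, 0.666% and 1.21% were called and 13.3%, 8.67% and 22.3% had p under 0.05 in these comparisons. The 1 gene was Cpsf3, the nuclease that cuts the histone 3′ end. Slbp, the stem-loop binding protein, had 65.4 and 71.9 RPKM with vehicle, 75.5 and 72.8 with PTH, and 68.9 and 71.0 with YKL-05-093. Snrpb, a shared Sm protein of the small nuclear ribonucleoproteins, had 98.0 and 146 RPKM with vehicle, 130 and 122 with PTH, and 122 and 120 with YKL-05-093. Snrpe, another Sm protein, had 66.4 and 86.7 RPKM with vehicle, 75.95 and 74.4 with PTH, and 75.9 and 63.3 with YKL-05-093. Of the 18, 7 were higher in vehicle 2 than in vehicle 1, and the median difference was -0.23, opposite in sign to that of the histone genes. These 18 were not matched to the histone genes in length or level, so the 2 medians are not directly comparable.

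The list of replication-independent histones includes variants that are made outside S phase. When in the cell cycle each member is made was not measured here. Of 12, all were tested and 0 were called, with 1, 1 and 6 at an unadjusted p under 0.05 in the same order, the last against 22.3% of all genes. The 6 were H3f3b, H2afy2, Cenpa, H2afj, H3f3c and H1f0. H2afy2, a macroH2A gene named after its values were seen, had 17.4 and 20.1 RPKM with vehicle, 10.4 and 10.9 with PTH, and 15.0 and 18.1 with YKL-05-093. Its log2 fold change for PTH was -0.81 ± 0.16 (limma adjusted p = 0.0583), and -0.63 ± 0.10 against YKL-05-093 (adjusted p = 0.0003), under the 2-fold limit. H2afx, whose product marks DNA breaks, had 310 and 515 RPKM with vehicle, 396 and 419 with PTH, and 425 and 373 with YKL-05-093. Vehicle 1 was its lowest library and vehicle 2 its highest, as for Hist1h4d. H1f0, the replacement linker histone, had 282 and 277 RPKM with vehicle, 353 and 336 with PTH, and 259 and 293 with YKL-05-093. H3f3b, a replacement H3 gene, had 226 and 252, 286 and 270, and 238 and 232 RPKM in the same order. Of the 12, 11 were higher in vehicle 2, by a median of 0.30.

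Of 14 histone chaperones, which carry and load histones, 14 were tested and 0 were called, with 1, 1 and 1 at an unadjusted p under 0.05. The list also holds Fkbp5, which is known as a co-chaperone of HSP90 and not as a histone chaperone, and which was the 1 gene in both comparisons with vehicle. In PTH against YKL-05-093 it was Nasp. Npm1 lay between 123 and 140 RPKM, Ssrp1, a subunit of the FACT complex, between 99.5 and 121, and Nap1l1 between 53.0 and 69.7. Of 25 S-phase genes, a list that also holds Slbp, 25 were tested and 0 were called, with 0, 2 and 6 at an unadjusted p under 0.05 (13.3%, 8.67% and 22.3% of all genes). Rrm2, a subunit of ribonucleotide reductase named after its values were seen, had 27.1 and 29.1 RPKM with vehicle, 28.2 and 27.03 with PTH, and 19.3 and 20.6 with YKL-05-093. PTH minus YKL-05-093 was 0.47 ± 0.07 for Rrm2 on the log2 scale (limma adjusted p = 0.0003) and 0.34 ± 0.10 for Ccne1, cyclin E1 (adjusted p = 0.0347), both under the 2-fold limit. Mcm6, a subunit of the replicative helicase, lay between 192 and 219 RPKM. Pcna, the sliding clamp, had 135 and 166 RPKM with vehicle, 167 and 163 with PTH, and 149 and 150 with YKL-05-093, and Mcm5 lay between 101 and 122. The median difference of vehicle 2 minus vehicle 1 was 0.04 over the S-phase genes, against 0.56 over the histone cluster genes. The summed RPKM of the S-phase genes was 1323 and 1325 in the vehicle libraries. The lists were not matched to the histone genes in length or level, with which the vehicle difference moved.

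Of the 12 osteocyte and osteoblast markers, 9 were tested in the same fits. After PTH, 3 were called higher and 1 lower, where 1.91% of all genes were called. Pdpn (log2 fold change 1.44 ± 0.20), Bglap (1.58 ± 0.26) and Bglap2 (1.49 ± 0.25) rose and Sp7 fell (-1.97 ± 0.16), with limma adjusted p between 0.0019 and 0.0285. Runx2 (-1.09 ± 0.22, limma adjusted p = 0.0625), Col1a1, Alpl, Phex and Dmp1 were not called. After YKL-05-093 the only call in the marker lists was Kdr, where 0.666% of all genes were called. Kdr had 0.582 and 0.476 RPKM with vehicle, and 1.72 and 1.43 with YKL-05-093. It met the filter only through libraries given PTH or YKL-05-093, so its fold change is not given. PTH against YKL-05-093 called Sp7 and Bglap, where 1.21% of all genes were called.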

How the data were processed

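RNA was measured in 6 libraries of Ocy454 cells, 2 per condition. The authors used STAR for alignment (mm10/GRCm38) and HTSeq with an Ensembl annotation for counting, and deposited RPKM values, linear and without scaling between libraries. Their treatment of reads with several placements, and their strand setting, are not given in the sources used here. As the values are not counts, limma 3.58.1 in R 4.3.3 was run on log2(RPKM + 0.1) within the 4 libraries of each comparison. Genes needed at least 0.5 RPKM in 2 libraries. The prior variance followed the mean log2 recovered reads, p-values were adjusted by Benjamini-Hochberg, and a call needed an adjusted p under 0.05 and over 2-fold. Fold changes on this scale understate low genes. Reads were recovered from the steps between RPKM values, with all 26214 genes above 0 whole to within 1e-06 reads (99.7% to 99.8% of the totals). The fit was tested on simulated data.

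Positions, exon overlap and unique windows came from GENCODE M21 (63 genes matched by identifier, 7 by symbol), promoters from RefSeq (Hist1h2ap matched more than 1 gene and was left out). Named were all called genes, the 12 highest, the highest of each class and cluster, the 5 with the largest change per comparison among genes with at least 20 reads, and the 3 highest of each list. Genes and lists were chosen with earlier results of these data known. Alternatives changed the pseudocount, filter, fit, spread, scaling and libraries.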

Additional observations from a re-analysis of the deposited data

How the results depend on the processing

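Of 45 counts of called histone genes under alternatives, 44 were 0, and the exception was 1 for PTH against vehicle without vehicle replicate 2. Apart from fits without a library, the median log2 fold change of the 59 genes kept its sign in PTH against vehicle (0.07 with the length trend removed, otherwise up to 0.22) and YKL-05-093 against vehicle (0.11 to 0.20). In PTH against YKL-05-093 it fell to -0.0042 with the length trend removed. Leaving out 1 library gave medians from -0.091 to 0.49, from -0.16 to 0.43 and from -0.020 to 0.14 in the 3 comparisons, below 0 without vehicle 1 in the first and second and without YKL-05-093 replicate 2 in the third. The cause was not tested.

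Counts over all genes moved more, from 272, 95 and 172 in the order above. No filter gave 0 for both comparisons with vehicle, a spread trended on the mean value 160 and 6, and 1 fit of all 6 libraries 173 for YKL-05-093 and 102 for PTH against YKL-05-093. Pseudocount 1 gave 55 for YKL-05-093 and 98 for PTH against YKL-05-093, the filter at 0.1 RPKM 57 and the length trend removed 176 for YKL-05-093, and no fold limit 1416 for PTH against YKL-05-093. Without 1 library the counts ran from 14 to 670, from 11 to 321 and from 0 to 155. No shared shift by replicate number was seen (correlations of the duplicate differences -0.034, -0.054 and -0.049), and the labels do not state a pairing. With the replicate block, 440 genes were called for PTH and 215 for YKL-05-093, with 0 histone genes in all 3 comparisons. Of 990 recomputed values of single named histone genes, 1 became a call and 74 changed sign, 59 of them in fits without a library. Precision is limited by 2 libraries per group.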
